A study of Mus musculus with 6 samples.

Results

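The genes described here are 33 that act in homologous recombination, in the Fanconi pathway or in the kinases that signal to both. They were chosen by symbol and found through their Ensembl identifiers in GENCODE release M21. All 33 were found among the 21135 genes listed, and all 33 had a mean of at least 10 normalised reads, the minimum for a test, which 17815 genes met. RNA was sequenced from DN3 thymocytes of C57BL/6 mice, the double-negative stage that lacks CD4 and CD8 and rearranges the T-cell receptor beta gene. NMe is a far enhancer of Myc to which Notch binds. One group of 3 libraries is NMe wild type, and the other group of 3 carries mutations of the GATA sites numbered 1 and 2 in NMe on both alleles. None of the genes described here was itself altered by design. The labels give no age, no sort gates, no way in which the sites were changed and no restriction of the change to a cell type. They also do not say that the libraries came from separate animals. A p-value here sets the difference between groups against the spread of these libraries, which may be technical.

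Homologous recombination repairs a broken chromosome by copying the sister chromatid, and so acts mainly in S and G2 phase. The broken ends are resected by the MRE11-RAD50-NBN complex, CtIP and EXO1, BRCA1, PALB2, BRCA2 and a family of paralogues (RAD51B, RAD51C, RAD51D, XRCC2 and XRCC3) prepare the resected strand for pairing, and RAD54 drives the exchange. The Fanconi core complex attaches ubiquitin to FANCD2 and FANCI at a replication fork stalled by a crosslink and hands the lesion to the same machinery, while ATM, ATR and their targets CHK2 and CHK1 hold the cell cycle. In DN3 thymocytes the breaks made by RAG at the T-cell receptor beta gene are joined by another route, non-homologous end joining. Homologous recombination serves mainly the divisions of these cells, though not every gene listed here acts in that pathway alone.

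Values are normalised reads, which are read numbers that the authors divided by a size factor for each library. The reads counted for the listed genes came to 38.6 to 51.3 M in a library. Myc, the gene that NMe controls, stood at 18041, 19223 and 20196 normalised reads in wild-type replicates 1, 2 and 3 and at 5562, 4612 and 6165 in mutant replicates 1, 2 and 3, and every set of values below is given in that order. Of 10 DN3 markers all were tested and 6 were higher and 1 lower in the mutant, with the interleukin 2 receptor gene Il2ra at 55810 or more in each library and Cd4 and Cd8a at 85.4 or less. Cd4 and Cd8a belong to a list of 8 markers of beta-selected or double-positive cells. The 8 together held 2.27e+04 to 2.49e+04 normalised reads in a library. Among markers of other stages and cells, 3 of 8 for early progenitors were lower (median -0.55), 3 of 8 for beta-selected or double-positive cells were higher and 1 lower (median 0.45), and 3 of 4 for gamma-delta T cells were higher (median 0.68). For NK or innate lymphoid cells 1 of 3 was higher. The 4 listed genes held 1.43e+04 to 1.75e+04 normalised reads in the wild type and 1.99e+04 to 3.18e+04 in the mutant. For thymic stroma 1 of 3 was higher, at 8228 to 1.00e+04 against 9978 to 1.35e+04 for the list. Of B cell and myeloid or dendritic markers, 0 of 2 and 0 of 4 were higher or lower. Among all genes tested 7.94% were higher and 10.9% lower. Wild-type replicate 2 held 7232 normalised reads of 4 erythroid genes, against 16.0 to 59.4 in the other 5 libraries, and wild-type replicate 3 stood apart on the second principal component (17.1% of the variance). A list of 12 immediate early and heat shock genes was lowest in wild-type replicate 3 (4.34e+05 normalised reads) and highest in mutant replicate 3 (8.89e+05). The part of these marker and library differences in the results below was not tested. In bulk RNA, fewer cells of one kind and less RNA per cell cannot be told apart.

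Of the 33 repair genes 4 fell and 1 rose in the mutant. Their mean level was lower in mutant replicates 1 and 2 than in any wild-type library (-0.25 and -0.15 relative to the mean of the 6 libraries, log2 scale), but mutant replicate 3 (0.10) stood above wild-type replicates 1 and 2 (0.01 and 0.08) and below replicate 3 (0.21). The resection nuclease gene Exo1, the paralogue gene Xrcc3, the strand exchange motor gene Rad54l and the checkpoint kinase gene Chek1 fell, by 1.43-fold to 1.71-fold on the ratio of means. Rad51c, another gene of that paralogue family, rose 1.55-fold. The other 28 genes did not pass the test, among them both breast cancer genes, all 8 core complex genes and both genes of the FANCD2-FANCI complex.

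The test was limma's, on log2(value + 1), mutant minus wild type, adjusted over the 17815 genes tested at a threshold of 0.05. It called 4 of 33 members lower (12.1%), where 10.9% of all genes tested were called lower. It called 1 of 33 higher (3.03%), where 7.94% of all genes were. Calls in either direction came to 18.8% of all genes tested, so the share of members called is near that of any gene. The sign was more one-sided than the calls: 26 of 33 log2 changes were negative (78.8%), against 47.9% of all genes tested. The median change of the members was -0.21 and their range -0.77 to 0.65, while the median of all genes was 0.03. All 3 mutant libraries lay below all 3 wild-type libraries for 11 members, and 20.3% of all genes did so. They lay above for 3 members (Rad51c, Rad51d and Fancg), and 18.0% of all genes did so, which left 19 members with overlapping groups.

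**Figure D1:**
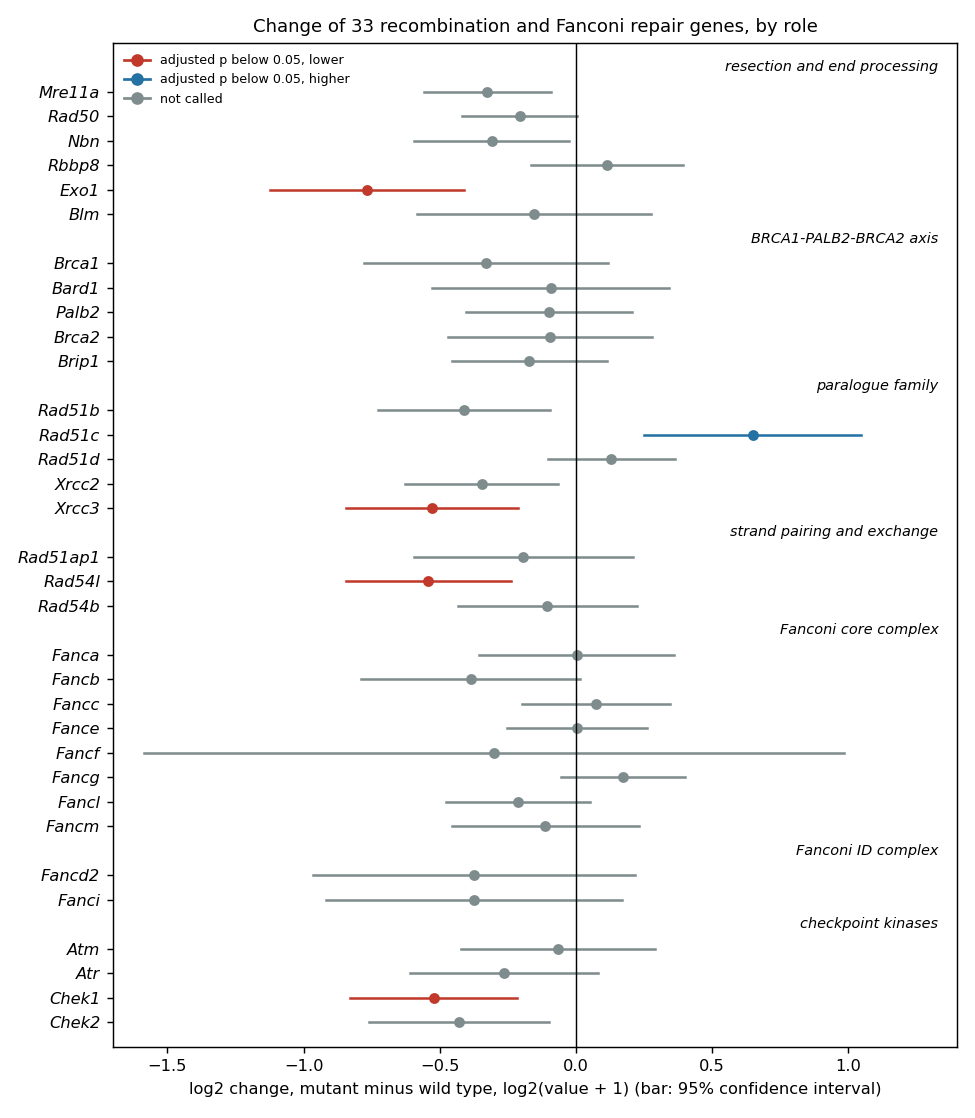
Log2 change of each of the 33 genes, mutant minus wild type (horizontal axis, log2(value + 1) scale), grouped by role; points are limma estimates over 3 against 3 libraries and bars are 95% confidence intervals. Most points lie left of 0, 4 are called lower (Exo1, Xrcc3, Rad54l, Chek1) and 1 higher (Rad51c), and the widest interval is that of Fancf.

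The promoters of these genes are shown because Myc fell and because genes of this kind are textbook targets of the E2F factors, which drive the entry into S phase. RefSeq's table for GRCm38.p6 held 25 of the 33 genes, each with the 250 bases before a transcription start and the 50 after it. These windows were searched on both strands for the Myc-type E-box CACGTG, the E2F sites TTTCCCGC and TTTGGCGC, and TTTGAA, the cell cycle homology region found at genes of G2 phase and mitosis. No motif contains another. TTTCCCGC was found in 5 of the 25 genes (20.0%) and in 1.07% of the 32851 windows of the whole table. A gene was counted if any of its listed starts had the site, while the share of the whole table is per window, which favours the genes. Rad51c was counted only through its second start. The windows were not matched for base composition. RefSeq's starts are not always those of GENCODE: the windows of Brca2, Chek2 and Rad51c (second start) end close to the GENCODE start, that of Bard1 crosses it with the site before it, and the stretch of Fancg lies within the GENCODE span of the gene. Distances below are to the first base of the site, so the site of Rad51c, given at 5 bases, runs across the start. The 5 stretches follow, 5′ to 3′ on the strand of the gene, with the site in capitals (GCGGGAAA is TTTCCCGC read on the other strand).
Bard1, chr1:71103163-71103192, minus strand, site 209 bases before the start: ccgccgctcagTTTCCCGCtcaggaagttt
Brca2, chr5:150522442-150522471, plus strand, site 168 bases before the start: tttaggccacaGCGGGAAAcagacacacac
Chek2, chr5:110839820-110839849, plus strand, site 152 bases before the start: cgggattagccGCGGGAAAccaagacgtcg
Fancg, chr4:43010335-43010364, minus strand, site 52 bases before the start: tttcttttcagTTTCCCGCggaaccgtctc
Rad51c, chr11:87404941-87404970, minus strand, at the second of 2 listed starts, site 5 bases before it: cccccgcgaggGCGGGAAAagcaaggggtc

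Exo1 is not in the table, and the window of Chek1 lies within the GENCODE span of the gene (36708482 to 36727065), so that the sequence before its GENCODE start was not searched. Rad54l and Xrcc3, the other 2 genes that fell, do not carry that exact site in their windows. Rad51c, the gene that rose, does, and Bard1, Brca2, Chek2 and Fancg, the others that do, did not pass the test. CACGTG was in 0 of the 25 genes and in 7.15% of all windows, TTTGGCGC in 0 and 0.514%, and TTTGAA in 2 (Bard1 and Rad51b) and 17.9%. A match is only a run of letters and not a shown binding site, and no match speaks only of these letters in this window. The 250 bases before the start of Rad54l and Xrcc3 follow in lower case, since none of the 4 motifs is in them.
Rad54l, chr4:116123691-116123940, minus strand, the first of 2 starts that lie 1 base apart: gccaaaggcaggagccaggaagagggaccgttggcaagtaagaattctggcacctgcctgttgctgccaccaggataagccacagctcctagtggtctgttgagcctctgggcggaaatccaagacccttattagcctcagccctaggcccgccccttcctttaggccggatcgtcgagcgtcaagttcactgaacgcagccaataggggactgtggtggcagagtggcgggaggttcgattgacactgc
Xrcc3, chr12:111813880-111814129, minus strand: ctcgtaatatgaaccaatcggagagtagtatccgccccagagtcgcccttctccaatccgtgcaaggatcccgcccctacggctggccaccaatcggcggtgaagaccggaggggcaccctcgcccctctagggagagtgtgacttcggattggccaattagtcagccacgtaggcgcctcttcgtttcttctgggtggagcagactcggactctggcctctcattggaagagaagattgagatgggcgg

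Resection genes come first in the pathway. Exo1 (chromosome 1, 175880581 to 175913489, GRCm38), the nuclease of long-range resection that also serves mismatch repair, stood at 2892, 3557 and 4167 normalised reads in the wild type and 1786, 1990 and 2449 in the mutant. Every mutant library was below every wild-type library, although wild-type replicate 1 and mutant replicate 3 came close. Exo1 was 1.71-fold lower (3539 ± 638 against 2075 ± 340, SD, n = 3 each), with a log2 change of -0.77 ± 0.16 (SE; 95% confidence interval -1.12 to -0.41) and a limma adjusted p of 0.00908. Of 20 alternative settings 19 kept that call, with adjusted p from 9.3e-05 with DESeq2 to 0.0608 without a mean-variance trend.

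The 3 genes of the MRE11-RAD50-NBN complex, which binds the broken end first, lay lower in every mutant library and did not pass. Mre11a, its nuclease, stood at 3120, 3180 and 3616 against 2561, 2599 and 2735 (log2 change -0.33 ± 0.105, adjusted p = 0.0551). Rad50, its ATPase, stood at 4299, 4309 and 4134 against 3464, 3789 and 3790 (-0.21 ± 0.095, adjusted p = 0.158). Nbn, the subunit that brings ATM to the break, stood at 2881, 2913 and 3554 against 2744, 2211 and 2578 (-0.31 ± 0.13, adjusted p = 0.120). Mre11a is the one nearest the threshold: 5 of 20 settings called it, with adjusted p of 0.0327 with DESeq2 and up to 0.164 without wild-type replicate 3. Its exons overlap those of Ankrd49 on the other strand over 2.60% of their length, and these kits do not record the strand. Ankrd49 stood at 3013, 2847 and 2710 against 2207, 2172 and 2048.

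Rbbp8, which encodes CtIP, the cofactor that starts resection, did not share the sign of the complex it works with. It stood at 2444, 2531 and 2839 in the wild type and 2540, 2677 and 3279 in the mutant, with overlapping groups (0.115 ± 0.13, adjusted p = 0.567). Blm, the helicase that resects with DNA2 and dissolves joined chromosomes, spread from 1267 to 2262 in the mutant and from 1688 to 2121 in the wild type (-0.155 ± 0.19, adjusted p = 0.618). Of these 6 genes 1 fell, 5 had a negative change, and the median change was -0.26.

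The BRCA1-PALB2-BRCA2 axis, which prepares the resected strand for pairing, had 0 of 5 genes called and 5 of 5 negative changes with overlapping groups (median -0.10). Brca1 stood at 1746, 2010 and 2750 against 1332, 1706 and 2136 (-0.33 ± 0.20, adjusted p = 0.280). The means were 2169 ± 520 and 1725 ± 402 (SD, n = 3 each), and the groups overlapped. Brca2, the last partner of the axis to act, stood at 2085, 1849 and 2390 against 1528, 2098 and 2354 (-0.10 ± 0.17, adjusted p = 0.732). Bard1, the ring partner of BRCA1, stood at 471.9, 574.8 and 544.5 against 416.9, 443.7 and 657.6 (-0.09 ± 0.20, adjusted p = 0.777), so that mutant replicate 3 was the highest of the 6 libraries. Palb2, the bridge between the BRCA proteins, changed by -0.10 ± 0.14 (adjusted p = 0.658), and Brip1, the helicase also named FANCJ, by -0.17 ± 0.13 (adjusted p = 0.379). The 95% confidence intervals still allow sizeable changes: that of Brca1 ran from -0.78 to 0.12 and that of Brca2 from -0.47 to 0.28 on the log2 scale.

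The 5 paralogues split in sign, and none had overlapping groups. They encode related proteins that work as complexes on the resected strand: RAD51B, RAD51C, RAD51D and XRCC2 in one, and RAD51C with XRCC3 in the other. RAD51C is in both. Rad51c (chromosome 11, 87376645 to 87404954) was the scarcest member per length of exon in the wild type, at 84.55 normalised reads per kb, and stood at 308.6, 351.4 and 452.0 in the wild type and 528.7, 575.9 and 622.3 in the mutant. It rose from 370.7 ± 73.6 to 575.6 ± 46.8 (SD, n = 3 each; log2 change 0.65 ± 0.18, 95% confidence interval 0.25 to 1.05, limma adjusted p = 0.0309). The call was lost without wild-type replicate 1 (adjusted p = 0.101), wild-type replicate 2 (0.0987), mutant replicate 2 (0.0804) or mutant replicate 3 (0.0841), with the correction for GC content, length and abundance (0.0599) and without the mean-variance trend (0.0691). Over all 20 settings it ranged from 0.0062 to 0.101, and 14 kept the call.

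Xrcc3 (chromosome 12, 111803192 to 111813873), the partner of RAD51C, moved the other way, from 2455, 1942 and 2568 to 1480, 1513 and 1824. The groups did not overlap, although mutant replicate 3 lay close to wild-type replicate 2. The change was -0.53 ± 0.14 (95% confidence interval -0.84 to -0.21, limma adjusted p = 0.0276), 1.45-fold on the means of 2322 ± 333 and 1605 ± 190 (SD, n = 3 each). It was lost without wild-type replicate 1 (adjusted p = 0.0900), wild-type replicate 3 (0.0885), mutant replicate 1 (0.0763) or mutant replicate 2 (0.0860), with equal library totals (0.0522), with the GC and length correction (0.0581) and without the trend (0.0920), in a range of 0.00476 to 0.0920. The other 3 paralogues did not pass. Rad51b stood at 621.4, 671.3 and 645.0 against 523.4, 494.4 and 441.3 (-0.41 ± 0.14, adjusted p = 0.0711), and Xrcc2 at 1360, 1231 and 1440 against 981.5, 1039 and 1150 (-0.35 ± 0.13, adjusted p = 0.0830). In both all mutant libraries were the lower ones. Rad51d stood at 1773, 1851 and 1865 against 1902, 2083 and 2026, with all mutant libraries above (0.13 ± 0.105, adjusted p = 0.420).

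Among the genes of strand pairing and exchange, Rad54l fell and the other 2 did not pass. Rad54l (chromosome 4, 116094264 to 116123690), which encodes RAD54, the motor that opens the sister duplex, stood at 3119, 3712 and 3800 in the wild type and 2180, 2257 and 2887 in the mutant. Mutant replicate 3 was the nearest to the wild type. The change was 1.45-fold (3543 ± 371 against 2442 ± 388, SD, n = 3 each; -0.54 ± 0.14, 95% confidence interval -0.85 to -0.24, limma adjusted p = 0.0211). It was lost without wild-type replicate 2 (adjusted p = 0.0826), wild-type replicate 3 (0.0658), mutant replicate 1 (0.0629) or mutant replicate 2 (0.0719) and without the trend (0.0861), in a range of 0.00329 to 0.0861. Over 15.4% of their length its exons overlap those of Lrrc41 on the other strand, which stood at 2589, 2924 and 2948 against 2884, 2417 and 2232. Its paralogue Rad54b stood at 1664, 1793 and 2178 against 1566, 1619 and 2055 (-0.11 ± 0.15, adjusted p = 0.658). Rad51ap1, which stimulates strand pairing, ranged from 2303 to 3157 in the wild type and from 2011 to 3174 in the mutant (-0.19 ± 0.18, adjusted p = 0.491).

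**Figure D2:**
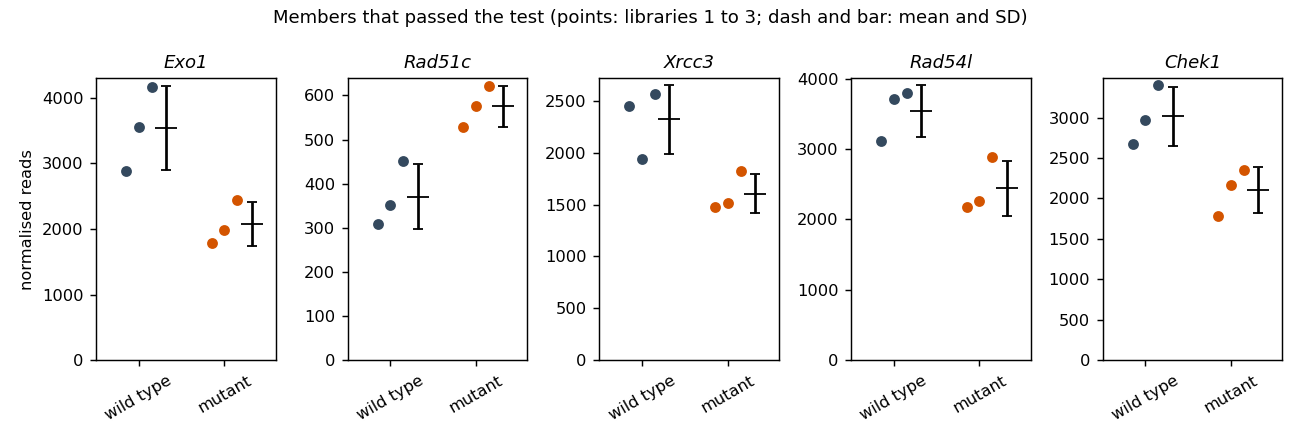
Normalised reads (vertical axis, from 0) of the 5 genes that passed the test, with 3 wild-type and 3 mutant libraries as points in the order of replicates 1 to 3 and the mean with its SD beside them. In none of the 5 do the groups overlap; Exo1, Xrcc3, Rad54l and Chek1 are lower and Rad51c higher in the mutant.

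The Fanconi core complex, the ubiquitin ligase that starts crosslink repair, had 0 of 8 genes called, 4 negative and 4 positive changes and a median of -0.055. The correction for GC content, length and abundance called 2 of them lower, Fancb (-0.56, adjusted p = 0.0416) and Fancl (-0.35, adjusted p = 0.0367). Fancl, its catalytic subunit, stood at 1497, 1300 and 1547 against 1214, 1252 and 1271 (-0.21 ± 0.12, adjusted p = 0.240). All 3 mutant libraries lay below the wild type. Fancg, a scaffold of the complex, stood at 2510, 2606 and 2574 against 3044, 2958 and 2668, with all mutant libraries above (0.17 ± 0.10, adjusted p = 0.273). Fance, which contacts FANCD2, was level in its means, 1640 ± 140 against 1641 ± 63.7 (log2 change 0.004 ± 0.115, 95% confidence interval -0.25 to 0.26, adjusted p = 0.985). Fanca, the partner of FANCG, spread from 1654 to 1983 in the wild type and from 1472 to 2277 in the mutant (0.002 ± 0.16, adjusted p = 0.994), and Fancc from 1370 to 1639 and from 1441 to 1666 (0.07 ± 0.12, adjusted p = 0.719).

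Fancb, the X-linked core gene, stood at 651.1, 711.4 and 827.4 against 465.4, 526.1 and 698.4, so that the groups overlapped through mutant replicate 3 (-0.39 ± 0.18, adjusted p = 0.163). Fancm, the translocase that anchors the complex to DNA, changed by -0.11 ± 0.155 (adjusted p = 0.652). Fancf, the small adaptor gene, was the most uneven member in either genotype. It stood at 626.7, 758.2 and 192.2 in the wild type and 493.9, 153.0 and 646.5 in the mutant, so that 1 library of each group lay far below the other 2 (-0.30 ± 0.58, adjusted p = 0.756). Its coefficient of variation was 56.35% and 58.6%, against medians of 11.35% and 13.9% over the members. Over 14.96% of its exon it overlaps Gas2 on the other strand, which stood at 475.1, 294.1 and 442.2 against 291.3, 274.3 and 376.2. Exons of Rad54b (35.9%), Fancc (18.6%), Fanci (15.95%), Fancl (13.7%) and Fanca (10.5%) overlap other genes as well, and their reads carry the same doubt.

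Fancd2 and Fanci encode the pair that the core complex marks with ubiquitin, and they varied together between libraries without passing the test. Fancd2 stood at 1555, 1231 and 1747 in the wild type and 741.9, 1188 and 1741 in the mutant (-0.37 ± 0.27, adjusted p = 0.357). Fanci stood at 1338, 1277 and 1566 and at 682.8, 1230 and 1464 (-0.37 ± 0.24, adjusted p = 0.314). Mutant replicate 1 was by far the lowest library in both genes, and mutant replicate 3 was within the wild-type range. Their mutant coefficients of variation, 40.9% and 35.6%, were the highest of the members after Fancf. Without mutant replicate 1 the log2 changes were -0.056 for Fancd2 and -0.049 for Fanci.

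**Figure D3:**
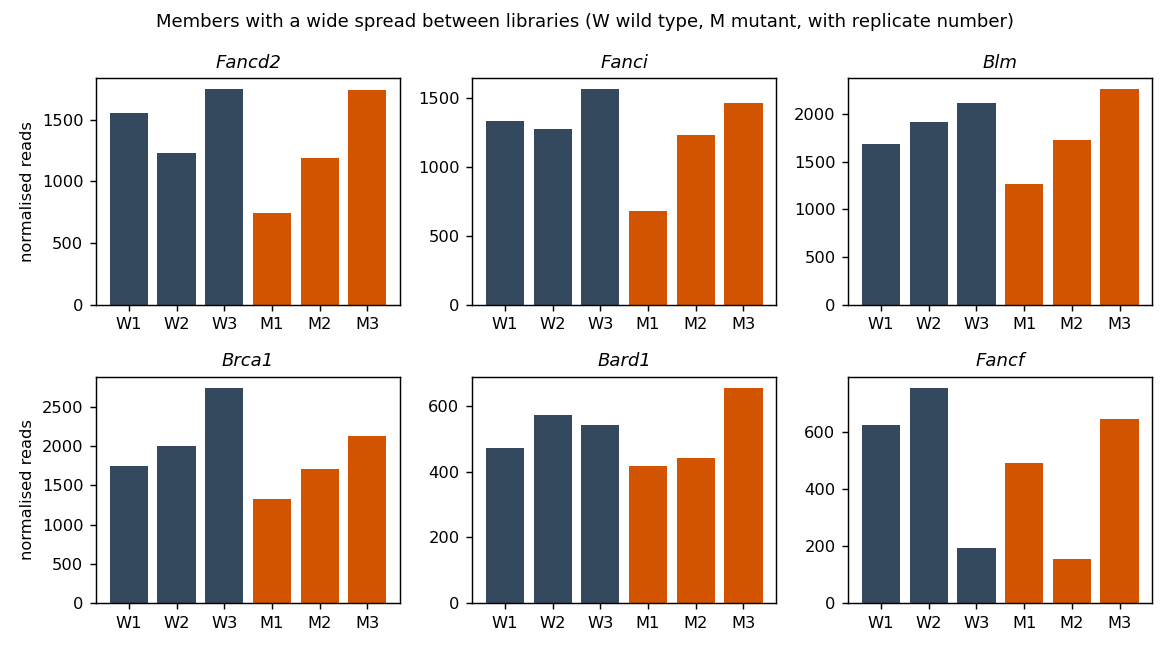
Normalised reads (vertical axis, from 0) in each library for 6 of the members with wide spread between libraries; W is wild type, M is mutant, and the number is the replicate. In Fancd2 and Fanci mutant replicate 1 is the low library, in Blm, Brca1 and Bard1 mutant replicate 3 is within or above the wild-type range, and in Fancf 1 library of each genotype is low.

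Of the 4 checkpoint kinases 1 fell and 3 did not pass (median -0.35). Chek1 (chromosome 9, 36708482 to 36727065), the kinase that ATR activates when forks stall, stood at 2668, 2973 and 3404 in the wild type and 1787, 2168 and 2352 in the mutant, with no overlap. It was 1.43-fold lower (3015 ± 370 against 2102 ± 289, SD, n = 3 each; log2 change -0.52 ± 0.14, 95% confidence interval -0.83 to -0.22, limma adjusted p = 0.0258). The call was lost without wild-type replicate 2 (adjusted p = 0.0777), wild-type replicate 3 (0.0841), mutant replicate 1 (0.0694) or mutant replicate 2 (0.0566) and without the trend (0.0929), in a range of 0.00476 to 0.0929. Chek2, the kinase downstream of ATM, stood at 1287, 1421 and 1593 against 1129, 888.2 and 1190. All its mutant libraries were lower, and it did not pass (-0.43 ± 0.15, adjusted p = 0.0711), though DESeq2 (0.0396), library weights (0.0330) and the GC and length correction (0.0395) called it. Atr stood at 2077, 1977 and 2646 against 1532, 2064 and 1986 and did not pass (-0.26 ± 0.155, adjusted p = 0.263), though it did with the GC and length correction (-0.49, adjusted p = 0.0144). Atm stood at 1869, 2287 and 2826 against 1897, 2388 and 2319 (-0.07 ± 0.16, adjusted p = 0.805).

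Per kb of exon, the wild-type means ran from 84.55 normalised reads for Rad51c to 1230 for Nbn. Length here is that of all annotated exons together, 23.63 kb for Atr. A gene with annotated exons that its transcripts seldom use looks scarcer on this scale, so the order is approximate. Xrcc3 (844.2), Rad50 (790.2), Fancg (675.4) and Chek1 (650.5) followed Nbn, and Bard1 (93.7) and Atr (94.5) were next above Rad51c. The order mixes roles: on this scale the genes of the end-binding complex and Chek1 were abundant, while Brca2 (154.5), Palb2 (151.0) and Bard1 were among the scarce ones. In the mutant Rad51c, at 131.3 per kb, lay above Rad51b (129.5), Bard1 (89.4) and Atr (78.75).

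The members also varied together between the libraries of a genotype. The mean deviation of the 33 genes from their mean over the 6 libraries, on the log2 scale, was 0.01, 0.08 and 0.21 in wild-type replicates 1, 2 and 3 and -0.25, -0.15 and 0.10 in mutant replicates 1, 2 and 3. So mutant replicate 3 stood above wild-type replicates 1 and 2. It was the highest mutant library in 25 of 33 members (75.8%, against 31.9% of all genes), and mutant replicate 1 the lowest in 25 (75.8% against 33.6%). Wild-type replicate 3 was the highest wild-type library in 25 (75.8% against 36.5%), and wild-type replicate 1 the lowest in 22 (66.7% against 35.5%). Below all 3 wild-type libraries were 24 members in mutant replicate 1 (72.7%, against 35.3% of all genes in that library). In mutant replicate 2 they were 20 (60.6% against 33.8%), and in mutant replicate 3 they were 11 (33.3% against 35.1%). The negative changes numbered 22 without mutant replicate 1 (median -0.08), 23 without wild-type replicate 3 (median -0.14) and 27 without mutant replicate 3 (median -0.32).

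Lists of cell cycle genes varied between the same libraries. The 28 mitosis genes deviated by -0.08, 0.05 and 0.29 in the wild type and -0.30, -0.15 and 0.18 in the mutant, which is the order of the repair genes within each genotype, with mutant replicate 3 again above wild-type replicates 1 and 2. The 35 genes of replication licensing and the fork deviated by 0.09, 0.22 and 0.35 and by -0.31, -0.24 and -0.105, with every mutant library below every wild-type one. The 12 genes of non-homologous end joining stayed between -0.05 and 0.06. Whether the share of cells in S, G2 or M phase has a part in the levels of the repair genes was not tested.

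**Figure D4:**
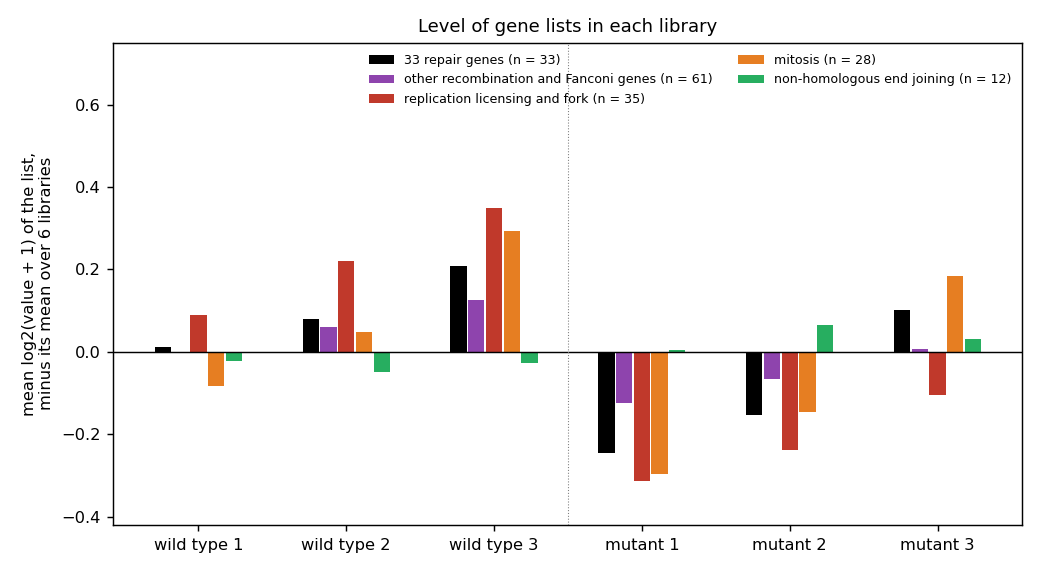
Mean log2(value + 1) of each gene list in each library, minus the mean of that list over the 6 libraries (vertical axis), for 3 wild-type and 3 mutant libraries; bars are lists, with the number of genes in the key. The repair genes run from -0.25 in mutant replicate 1 to 0.21 in wild-type replicate 3 and are at 0.10 in mutant replicate 3, above 0, where the replication list is at -0.105.

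The rest of the recombination and Fanconi machinery was described by a list of 61 further genes, all tested. Of them 7 were lower (11.5%, against 10.9% of all genes tested) and 2 higher (3.28% against 7.94%). The median was -0.15, and 42 changes were negative. Of the ring clamp that is loaded beside damaged DNA to activate ATR, Rad1 (-0.58 ± 0.11, adjusted p = 0.00685) and Hus1 (-0.58 ± 0.15, adjusted p = 0.0245) fell, while Rad9a rose (0.43 ± 0.12, adjusted p = 0.0320). Cenpx, the partner of FANCM also named MHF2, stood at 2516, 2754 and 2521 against 1861, 1431 and 1135 and fell by 0.84 ± 0.17 on the log2 scale (adjusted p = 0.00695). Rpa2, of the single-strand binding protein, fell by 0.38 ± 0.10 (adjusted p = 0.0250). Mus81, the nuclease that cuts joined chromosomes, rose from 1288, 1483 and 1346 to 1830, 2109 and 2146 (0.56 ± 0.12, adjusted p = 0.0100). The 9 calls of this list dropped to 4 without wild-type replicate 2, mutant replicate 1 or mutant replicate 2, to 3 without wild-type replicate 3 and to 2 without the trend. Rad1 and Mus81 kept their calls in all 20 settings and Cenpx in 19. Rad9a was lost without the trend (adjusted p = 0.101) or without any 1 library other than mutant replicate 3 (adjusted p 0.0509 to 0.1002), Hus1 without wild-type replicate 3, mutant replicate 1 or mutant replicate 3 (0.0774, 0.0717 and 0.0530), and Rpa2 without wild-type replicate 2 or 3 or mutant replicate 2 or 3 (0.117, 0.0685, 0.0597 and 0.0682).

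Set beside other lists, the median of the members (-0.21) lay near that of mitosis (-0.19, 2 of 28 lower and 0 higher). It was smaller in size than that of replication licensing and the fork (-0.49), where 22 of 35 genes fell and 0 rose, among them Pold2 (-0.62 ± 0.09, adjusted p = 0.00179) and Mcm6 (-0.63 ± 0.10, adjusted p = 0.00269). Cdk1 (-0.46 ± 0.12) and Cdc20 (-0.37 ± 0.11) were the 2 mitosis genes called. With equal library totals, without the trend, and without wild-type replicate 2 or 3 or mutant replicate 1 or 2, 0 mitosis genes were called, and without mutant replicate 3 as many as 7 were. Cdc20 kept its call in 9 of 20 settings and was at -0.21 with the GC and length correction (adjusted p = 0.339). Of the replication genes 14 fell without wild-type replicate 2, and 10 without the trend. End joining had a positive median (0.12, 2 of 12 higher and 1 lower): Xrcc5, which encodes Ku80, fell by 0.79 ± 0.10 (adjusted p = 0.00092), and Lig4, the ligase, rose by 0.50 ± 0.13 (adjusted p = 0.0263). The list of E2F factors held 11 genes, with Rb1, Rbl1 and Rbl2 among them. In it E2f1 fell by 0.49 ± 0.12 (adjusted p = 0.0222) and E2f6 by 0.425 ± 0.12 (adjusted p = 0.0318), and the repressor E2f7 rose by 0.80 ± 0.19 (adjusted p = 0.0172). Of 20 settings 15 kept the call of E2f1, 11 that of E2f6, 17 that of E2f7, 16 that of Lig4 and 20 that of Xrcc5. The 3 end joining calls dropped to 1 without wild-type replicate 2, without mutant replicate 2 or without the trend, and to 2 without wild-type replicate 1 or 3. Lig4 was lost without wild-type replicate 1 or 2 or mutant replicate 2 (adjusted p 0.0778 to 0.101), E2f1 without any 1 of the wild-type libraries (0.0597 to 0.0644), E2f6 without any 1 library (0.0503 to 0.0989) and E2f7 without wild-type replicate 1 (0.0522) or mutant replicate 2 (0.0609). Among all genes tested 10.9% were called lower and 7.94% higher. The differences between the lists in this paragraph were not tested.

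**Figure D5:**
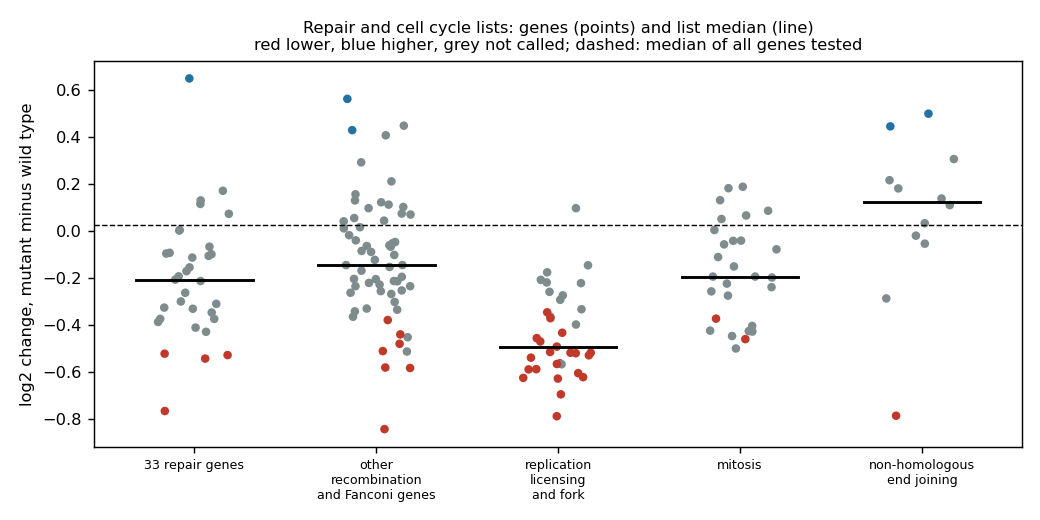
Log2 change of each gene (points), mutant minus wild type (vertical axis), for the 33 repair genes and 4 other lists; black lines are list medians, the dashed line is the median of all genes tested (0.03), red points were called lower and blue ones higher. The repair genes have a median of -0.21 and replication genes one of -0.49, while end joining genes have one of 0.12.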

How the data were processed

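RNA was measured in 3 wild-type and 3 mutant libraries made, per the labels' protocols, with SMART-Seq v4 and Nextera XT. Per the submitters' processing notes, the tools were STAR 2.5.3, featureCounts and DESeq2 1.20.0, with mm10 and GRCm38 as builds. Which annotation release, counting options and gene filter applied is not given in the sources used here. Each deposited value is a signal per gene: the authors scaled its read count by a size factor of the library. Whole reads could be recovered, with a tolerance of 0.1 reads, from 100.0% of the 126810 values, and came to between 38.6 and 51.3 M in a library. On these reads edgeR's quasi-likelihood test called 3283 genes and DESeq2 4168.

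Symbols came from GENCODE M21 by gene identifier (21100 of 21135 matched). Libraries of a group differed by far more than sampling noise (a chi-square of 24.4 to 50.4 for each degree of freedom), and none was counted as a repeat. The test was limma 3.58.1 (R 4.3.3, empirical Bayes with a trend of variance on mean, two-sided, Benjamini-Hochberg at 0.05) on log2(value + 1) over the 17815 genes whose mean was 10 or more, which understates the change of low genes. Errors of changes are standard errors, and errors of levels standard deviations. Length is the union of a gene's exons in kb. The 33 genes and all lists were chosen with earlier results of these data known. From other lists up to 4 genes in each direction (further recombination genes) or up to 2 genes with the smallest p were named; a few of them are not reported here. Ankrd49, Lrrc41, Gas2, Lig4 and E2f6 were chosen with their values in view. The settings tried as alternatives were scalings, pseudocounts, low-value filters, models of the variance, library weights, a replicate block, a correction for GC content, length and abundance, edgeR 4.0.16, DESeq2 1.42.0, voom and leaving out 1 library at a time. The methods were tested on simulated data.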

Additional observations from a re-analysis of the deposited data

How the results depend on the processing

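Against the 4 lower and 1 higher calls among the repair genes and the 1938 lower and 1414 higher among all genes, a fit without the mean-variance trend gave 0 and 0 among the repair genes and 1167 and 749 among all. Library weights called 7 repair genes lower, DESeq2 7, and the correction for GC content, length and abundance 9 lower and 0 higher. Leaving out 1 library at a time gave 1 to 4 lower and 0 to 1 higher among the repair genes, and 1086 to 1780 lower and 819 to 1176 higher among all. With equal library totals the split of all genes was 1647 lower and 1827 higher, with a median of 0.08, and 26 of the 33 changes stayed negative. Over all genes tested, deviations of libraries with the same replicate number had correlations of -0.02, -0.07 and -0.01 for numbers 1, 2 and 3. The mean deviation of the 33 repair genes from their own group rose with the number in both genotypes. It was -0.09, -0.02 and 0.11 in the wild type and -0.15, -0.05 and 0.20 in the mutant. These values cannot settle whether the numbers pair the libraries. With a replicate block the calls were 4 lower and 1 higher among the repair genes and 1727 lower and 1339 higher among all. Under that block 7 mitosis genes were called.

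Signs turned for 10 members that no setting called. Leaving out 1 library at a time, the log2 change ranged from -0.358 to 0.060 for Blm, -0.297 to 0.031 for Bard1, -0.167 to 0.013 for Palb2, -0.227 to 0.084 for Brca2, -0.229 to 0.005 for Rad54b, -0.154 to 0.160 for Fanca, -0.062 to 0.062 for Fance, -0.912 to 0.326 for Fancf, -0.229 to 0.019 for Fancm and -0.215 to 0.083 for Atm. Library weights gave 0.004 for Atm. The cause was not tested. Of 660 comparisons of a member with an alternative, 606 kept sign and call.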
